A study of Rattus norvegicus and Mus musculus with 251 samples.

Results

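Endothelial and mural cell genes are the genes by which the cells of blood vessel walls are recognised in brain RNA. The 34 genes described here are named markers of those cells, and each matched 1 of the 46078 gene identifiers in the mouse count table by its symbol. By role they comprise 5 genes of endothelial cell junctions, 5 endothelial receptors, 4 transporters of the blood-brain barrier, 3 endothelial transcription factors, 7 further endothelial genes, 7 pericyte genes and 3 genes of vascular smooth muscle. RNA was measured in the prefrontal cortex (PFC) and the nucleus accumbens (NAc) of male and female mice of the inbred strain labelled C57BL6J, which drank either saline or morphine solution. The 4 treatments were saline, chronic morphine, and 24 h and 2 weeks after morphine, with 6, 8, 9 and 7 libraries in PFC and 7, 8, 9 and 8 libraries in NAc. Each group held 3 to 5 libraries of each labelled sex, and the age of the mice was not given in the sources used here. The labels call the cell type neuron, but the RNA came from punches of brain tissue 0.5 mm across, which hold every cell type of the region. In such bulk tissue fewer vessel cells and less RNA per vessel cell cannot be told apart. The labels also do not say that libraries of a group came from separate animals, so the p-values measure only the spread between these libraries.

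In brain capillaries, endothelial cells are sealed to each other by tight and adherens junctions and carry nutrients and drugs across their membranes through dedicated transporters, which together form the blood-brain barrier. Their growth and maintenance depend on receptors for vascular endothelial growth factor, angiopoietins and transforming growth factor beta, and on endothelial transcription factors. Pericytes share the capillary basement membrane with the endothelium, and smooth muscle cells ring the arterioles and set their diameter through a contractile apparatus of smooth muscle actin and myosin.

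Total counts per library ranged from 5182601 to 41532464 in PFC and from 22387525 to 43963295 in NAc. The lowest total belonged to the PFC library numbered 10, a female library of the 2 week group, which stood apart from the others. Of its reads 21.1% were not aligned, against a median of 0.566% over all libraries, and 81.6% of its counts over 50 were even numbers, against 49.6% to 53.1% in the other 61 libraries. It had 0 counts of Acta2, Anpep, Cspg4, Higd1b, Ocln and Sox17. In 2 of 62 libraries, the PFC and NAc libraries numbered 27 of the chronic group, the sex label was contradicted: both are labelled female, yet the Y-linked gene Ddx3y stood at 50.7 and 77.3 CPM (counts scaled to the library total), within the 44.3 to 102 CPM of male libraries and above the highest value of 0.863 CPM among the other female libraries. Several results of the vessel genes that rest on these 3 libraries are given with and without them. In the tests of other gene lists all 3 libraries were kept. The summed level of 8 neuronal markers was 7464 to 10262 CPM in PFC and 5018 to 6383 CPM in NAc.

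Some members share sequence with other genes, which bears on how far their counts can be taken as their own. Acta2, smooth muscle alpha-actin, is the member on which several results turn, and its coding sequence is 83.8% identical to that of Actg2, 85.4% to Acta1 and 82.6% to Actc1, the genes of the other muscle actins. The stretch below, 75 bases long like the reads, is shown because, among stretches inside 1 exon of all these genes, it has the fewest differences between Acta2 and its closest relative; it lies in coding sequence on the minus strand of GRCm38, at chr19:34243317-34243391 for Acta2, chr6:83516268-83516342 for Actg2, chr8:123892229-123892303 for Acta1 and chr2:114048123-114048197 for Actc1. Capitals mark, in Acta2, the 14 positions at which any of the other actins differs, and in each of the others its own differences from Acta2, which number 5, 8 and 12.
Acta2: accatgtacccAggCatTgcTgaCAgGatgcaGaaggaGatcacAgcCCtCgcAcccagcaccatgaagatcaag
Actg2: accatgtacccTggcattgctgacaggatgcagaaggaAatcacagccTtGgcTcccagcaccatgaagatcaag
Acta1: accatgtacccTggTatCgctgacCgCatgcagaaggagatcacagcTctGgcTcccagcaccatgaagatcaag
Actc1: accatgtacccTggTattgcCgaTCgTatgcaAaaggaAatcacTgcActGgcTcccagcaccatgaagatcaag

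No window of 75 bases in Acta2 transcripts (0 of 2121) or in those of Myh11, smooth muscle myosin heavy chain (0 of 7669), occurred unchanged in a transcript of another gene. Tagln, the actin-binding protein transgelin, shared 53.3% of its windows, nearly all with the predicted gene Gm48529, which overlaps it on the other strand. Windows were compared on both strands. Whether the counting kept the strands apart was not examined, so the counts of Tagln are uncertain. Ly6c1, a surface protein of brain endothelium, shared 19.05% of its windows, mostly with its neighbour Ly6c2, Abcb1a 17.1%, mostly with Abcb1b, Nos3 14.5% and Sox17 14.1%. The main partners of Nos3 and Sox17, Gm15587 and Gm37587, also lie on the other strand. The coding sequences of Ly6c1 and Ly6c2 are 97.7% identical. The first stretch below is the same in both genes, on the minus strand of GRCm38 at chr15:75047395-75047469 and chr15:75110553-75110627, so a read from it cannot be assigned to either. The second, at chr15:75045471-75045545 in Ly6c1 and chr15:75108612-75108686 in Ly6c2, tells them apart by the 2 bases in capitals.
Ly6c1 and Ly6c2, shared stretch: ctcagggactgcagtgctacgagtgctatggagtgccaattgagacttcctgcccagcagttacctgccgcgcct
Ly6c1, second stretch: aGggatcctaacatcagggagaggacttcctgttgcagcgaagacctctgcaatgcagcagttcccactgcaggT
Ly6c2, second stretch: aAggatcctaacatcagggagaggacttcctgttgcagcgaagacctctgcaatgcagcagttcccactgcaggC

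All 34 genes were detected in both regions, and endothelial barrier genes and pericyte genes led the list. Per length, as TPM (counts divided by exon length and scaled to the library), the most abundant member in PFC was Vtn, the matrix protein vitronectin made by pericytes, with a median of 164 TPM and a range of 94.2 to 234 over 30 libraries. Next came Slc2a1, the glucose transporter of the blood-brain barrier, at a median of 146 TPM and a range of 83.5 to 207, and Cldn5, the main claudin of brain tight junctions, at 112 TPM and 75.3 to 154. Their ranges overlap, so neighbours in this order do not differ beyond their spread. Rgs5, a regulator of G protein signalling that marks pericytes, stood at a median of 90.4 TPM and Itm2a, a membrane protein of endothelial cells, at 84.0 TPM. The lowest medians in PFC were those of Emcn, the sialomucin endomucin, at 3.37 TPM, and Abcc9, a subunit of the ATP-sensitive potassium channel of pericytes, at 4.36 TPM.

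In NAc the order was led by Slc2a1 with a median of 98.6 TPM and a range of 53.4 to 145 over 32 libraries, Itm2a with 93.4 TPM and 52.0 to 131, and Vtn with 86.9 TPM and 29.4 to 120. These 3 genes also overlapped each other. The lowest was Anpep, the aminopeptidase CD13 of pericytes, at a median of 1.73 TPM and a range of 0.787 to 3.97. Myh11 stood next to it at 2.29 TPM and ranged from 0.783 to 18.4.

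**Figure D1:**
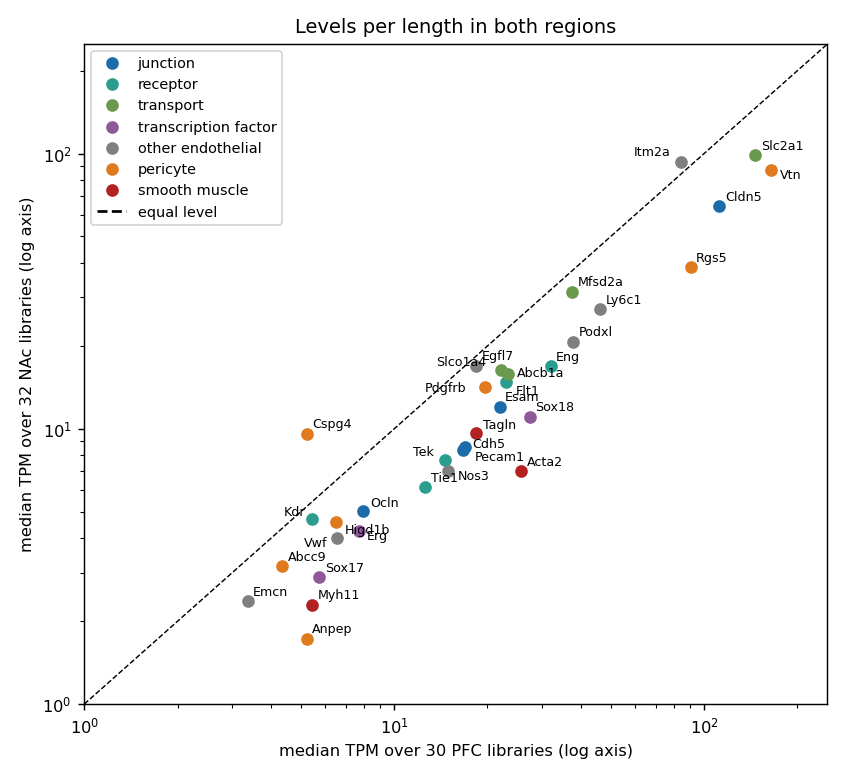
Median level of each of the 34 genes in TPM over the 30 PFC libraries (horizontal, log axis) and the 32 NAc libraries (vertical, log axis), coloured by role, with the dashed line marking equal levels. All genes but Itm2a and Cspg4 lie under the line, and Acta2 (25.7 TPM in PFC, 7.02 TPM in NAc) lies among the farthest from it.

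The vessel genes were lower in NAc than in PFC in nearly every role. In the comparison of the regions, averaged over treatments and sexes, a gene is said to be called at an adjusted p under 0.05 in edgeR's quasi-likelihood test (Benjamini-Hochberg over all 19266 genes tested). By that rule 33 of the 34 genes were called, 32 lower and 1 higher in NAc, beside 66.2% of all genes called, 29.7% lower and 36.5% higher. An unadjusted p under 0.05 was reached by the same number, 33, beside 68.7% of all genes. The median log2 fold change of the 34 genes was -0.92, and that of all genes tested was 0.07. With libraries of saline mice alone, 27 genes were called, 26 lower and 1 higher, beside 35.9% of all genes, 18.5% lower and 17.4% higher, and the median was -0.82. The higher gene, Cspg4, lost that call with no low-count filter (edgeR adjusted p = 0.0519) and with the replicate number as a block (0.0906). Number 10 in PFC left the count at 33 when omitted and the pair numbered 27 brought it to 32, with medians of -0.89 and -0.87.

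All 5 junction genes were lower in NAc, with a median log2 fold change of -0.91. Pecam1, the adhesion molecule CD31, fell most among them by 1.08 ± 0.08 (SE), and Ocln, occludin of the tight junction, least by 0.61 ± 0.13 (edgeR adjusted p = 2.3e-18 and 8.08e-05). Cldn5 had -0.84 ± 0.08, Cdh5, the cadherin of endothelial adherens junctions, -1.01 ± 0.09, and Esam, an endothelial adhesion molecule, -0.91 ± 0.08. For Pecam1, 31 of 32 NAc libraries lay below the lowest PFC library when number 10 is left aside.

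The 5 receptors had a median log2 fold change of -0.99, all called. Tie1 and Tek, the pair of receptors of the angiopoietin pathway, stood at -1.06 ± 0.09 and -0.99 ± 0.10 (SE), and Eng, the co-receptor endoglin of transforming growth factor beta, at -0.996 ± 0.082. The receptors of vascular endothelial growth factor differed less, with Flt1 at -0.68 ± 0.10 and Kdr at -0.43 ± 0.08 (edgeR adjusted p = 2.51e-08 and 1.08e-05). Barrier transporters differed least among the endothelial roles with all members called, at a median of -0.58: Slc2a1 had -0.71 ± 0.06, Abcb1a, the drug efflux pump P-glycoprotein, -0.63 ± 0.08, Slco1a4, an organic anion transporter, -0.53 ± 0.09, and Mfsd2a, the carrier of docosahexaenoic acid, -0.37 ± 0.05. Whether the roles differ from each other was not tested.

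The 3 transcription factors of the endothelium were called with a median of -1.12. Sox18, which acts in vessel differentiation, ranged from 2.97 to 5.37 log2 CPM in PFC with a median of 3.63 and from 1.52 to 3.18 in NAc with a median of 2.21. Of the NAc libraries 31 of 32 lay below the lowest PFC library other than number 10. Its log2 fold change was -1.50 ± 0.10 (SE, edgeR adjusted p = 2.51e-19), a level in NAc of 0.353 times that in PFC. Sox17, a relative of Sox18 found in arterial endothelium, had a median of 2.92 log2 CPM in PFC and 1.82 in NAc and fell by 1.12 ± 0.13 (edgeR adjusted p = 1.73e-10), and Erg, an ETS factor, by 1.10 ± 0.10.

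Among the 7 further endothelial genes, 6 were called, and the exception was Itm2a. Itm2a had medians of 5.30 log2 CPM in PFC and 5.42 in NAc and NAc was lower in 13 of the 30 library numbers found in both regions. Its log2 fold change was -0.00 ± 0.07 (SE, edgeR adjusted p = 0.992). Nos3, endothelial nitric oxide synthase, had -1.11 ± 0.08, Podxl, a sialomucin of the luminal membrane, -0.91 ± 0.08, Emcn -0.92 ± 0.16 and Ly6c1 -0.92 ± 0.10. Vwf, the von Willebrand clotting factor, had -0.66 ± 0.11 and Egfl7, a secreted angiogenic factor, -0.20 ± 0.06 (edgeR adjusted p = 8.5e-07 and 0.00541).

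Pericyte genes divided, with 6 lower and 1 higher and a median of -0.63. Rgs5 ranged from 6.06 to 7.29 log2 CPM in PFC with a median of 6.82 and from 4.13 to 6.12 in NAc with a median of 5.46. It was lower in NAc in 30 of 30 shared library numbers, and 30 of 32 NAc libraries lay below the lowest PFC library other than number 10. The log2 fold change was -1.28 ± 0.09 (SE, edgeR adjusted p = 2.74e-19). Anpep had a median of 2.61 log2 CPM in PFC and 0.93 in NAc and fell by 1.52 ± 0.16 (edgeR adjusted p = 2.96e-12). Vtn stood at -1.03 ± 0.09, Abcc9 at -0.63 ± 0.08 and Pdgfrb, the platelet-derived growth factor receptor beta of mural cells, at -0.58 ± 0.06.

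Cspg4, the NG2 proteoglycan that pericytes share with oligodendrocyte precursor cells, was the gene called higher in NAc. It ranged from 3.31 to 4.91 log2 CPM in PFC without number 10, which had 0 counts, and from 4.37 to 5.38 in NAc. The regions overlapped, and NAc was the lower one in 1 of 30 shared numbers. Its log2 fold change was 0.75 ± 0.12 (SE, edgeR adjusted p = 4.13e-07), or 1.68 times the PFC level. All 8 markers of oligodendrocyte precursors were also called higher in NAc, beside 36.5% of all genes. Their median was 0.56, with summed levels of 385 to 803 CPM against 315 to 524 CPM in PFC, and their part in the value of Cspg4 was not tested. Oligodendrocyte markers were higher in NAc too, as given below, so a rise was not particular to precursors.

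Higd1b, a mitochondrial protein gene used as a pericyte marker, had -0.41 ± 0.19 (SE, edgeR adjusted p = 0.0497). It lost its call with median-of-ratios factors (adjusted p = 0.0704), with no low-count filter (0.0845), with the replicate number as a block (0.145) and without the libraries numbered 27 (0.129).

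The 3 smooth muscle genes had a median of -1.10, and Acta2 had the largest difference of all 34 genes in this fit. Acta2 ranged from 2.91 to 5.04 log2 CPM in PFC without number 10, with a median of 3.93 over all PFC libraries, and from 0.50 to 5.43 in NAc with a median of 2.04. Of the NAc libraries 26 of 32 lay below that lowest PFC value, while the highest NAc library exceeded every PFC library. The log2 fold change was -1.61 ± 0.20 (SE, edgeR adjusted p = 5.6e-10), a level of 0.328 times that in PFC, and -1.67 without number 10. Tagln had -1.10 ± 0.17 and Myh11 -0.96 ± 0.17 (edgeR adjusted p = 1.98e-07 and 1.86e-06).

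**Figure D2:**
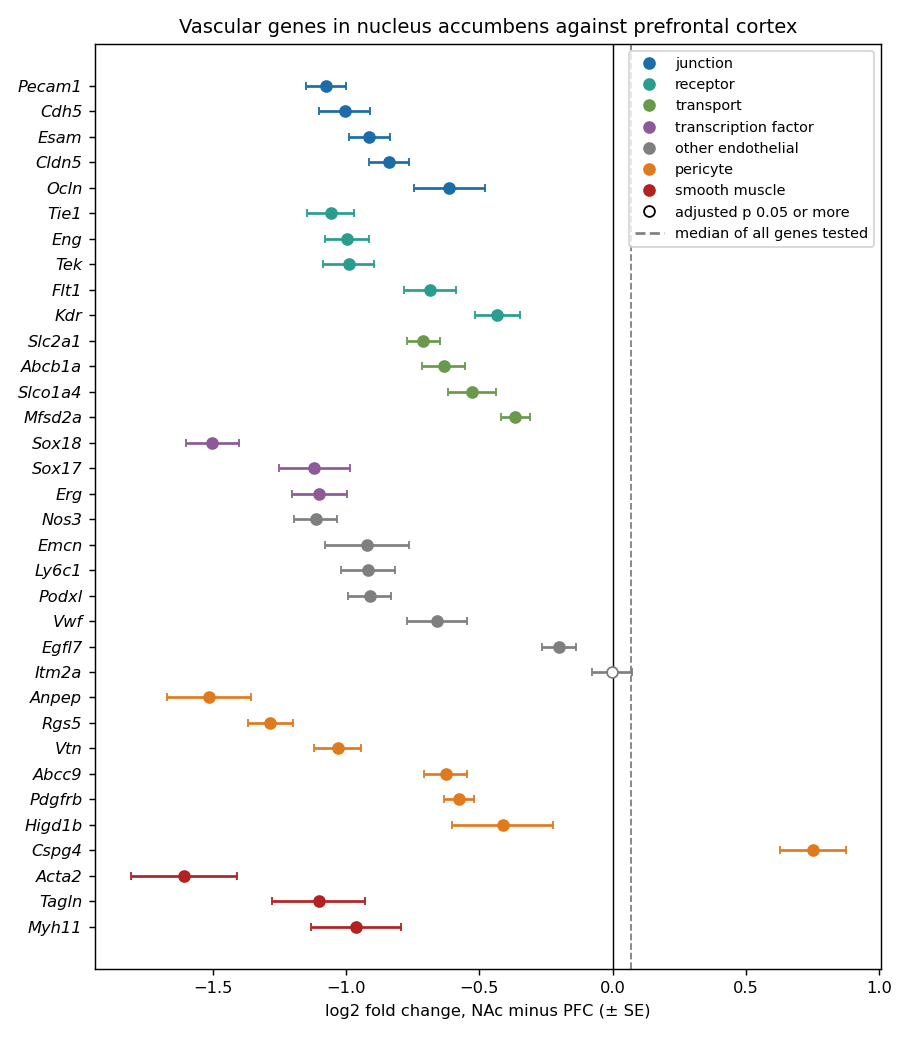
Log2 fold change of each gene in NAc against PFC (points, with bars of ± 1 SE from the edgeR fit over both regions), grouped and coloured by role, with an open point where the adjusted p is 0.05 or more and a dashed line at the median of all genes tested (0.07). Acta2, Anpep and Sox18 lie farthest to the left, Itm2a lies at 0 and Cspg4 alone lies to the right.

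Markers of other cell types differed between the regions too. Of 13 markers of fibroblasts and meninges, such as collagen genes, 11 were called lower in NAc with a median of -1.54, and their summed level was 271 to 577 CPM in PFC and 198 to 436 CPM in NAc. That sum follows mainly the abundant genes. Apod had 1239 to 8029 counts in PFC libraries and 1844 to 11750 in NAc, while Col1a1 had 56 to 803 and 50 to 297. All 7 markers of perivascular macrophages were called lower with a median of -2.05, at 7.71 to 26.1 CPM in PFC and 0.556 to 7.11 CPM in NAc, where Ms4a7 was at 0 in 12 of 32 libraries. Neuronal markers were lower for 7 of 8 genes (median -0.76), astrocyte markers for 6 of 8 (-0.57) and red blood cell markers for 4 of 5 (-0.69), while microglial markers were higher for 7 of 8 (0.28) and oligodendrocyte markers for 8 of 8 (0.65). Of all genes, 29.7% were called lower and 36.5% higher in this comparison. The part of cell composition or of the depth of meninges in a punch in the vessel gene differences was not tested.

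In NAc, 2 of the 3 smooth muscle genes differed between the treatments, with the highest levels 24 h after morphine. A test of any difference among the 4 treatments called 2 of the 34 genes, Acta2 and Myh11, beside 1.84% of 18382 genes tested, and 10 members reached an unadjusted p under 0.05 beside 14.9%. Acta2 ranged from 0.50 to 3.39 log2 CPM with saline (median 1.83), from 0.54 to 2.46 under chronic morphine (median 1.61), from 2.02 to 5.43 at 24 h (median 2.74) and from 1.05 to 3.87 at 2 weeks (median 2.03). The means were 1.93 ± 0.96 (SD, n = 7), 1.56 ± 0.67 (n = 8), 3.05 ± 1.09 (n = 9) and 2.12 ± 0.92 (n = 8). The 24 h libraries overlapped those of every other group, and their highest came from the female library numbered 18, with 1103 counts of Acta2. The edgeR adjusted p of the joint test was 0.0240.

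Myh11 was also highest at 24 h in NAc. It ranged from 1.48 to 3.28 log2 CPM with saline (median 2.12), from 0.61 to 2.60 under chronic morphine (median 1.90), from 2.15 to 5.23 at 24 h (median 3.18) and from 1.63 to 4.23 at 2 weeks (median 1.98). Here too the groups overlapped. The joint test gave an edgeR adjusted p of 0.0350. Tagln, the third smooth muscle gene, had medians of 1.78, 1.99, 2.64 and 2.19 log2 CPM in the same order of groups and missed the call (edgeR adjusted p = 0.238).

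Both calls rested on single libraries. Without the 24 h library numbered 18, neither gene was called (edgeR adjusted p = 0.145 for Acta2 and 0.159 for Myh11), and the same held without the chronic library numbered 27, whose sex label is contradicted (0.0581 and 0.0832). Over the 32 fits that left out 1 NAc library, Acta2 kept its call in 30 (adjusted p from 0.00672 to 0.145) and Myh11 in 20 (from 0.00830 to 0.159). Myh11 was also lost without any 1 of the 24 h libraries 16, 21, 22 and 23, the 2 week libraries 8 and 9, the chronic libraries 25 and 30 or the saline libraries 1 and 7. With sex as an additive term both were lost (0.0949 for Acta2 and 0.0737 for Myh11), and Sox18 was the gene called.

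No single contrast of 2 treatments in NAc called a member, and the contrast of 24 h with chronic morphine came nearest. There edgeR called 0 of 34 genes beside 0.087% of all genes, 17 members reached an unadjusted p under 0.05 beside 8.84% of all genes, and DESeq2 called 2, Acta2 and Myh11, beside 0.653%. Acta2 differed by 1.81 ± 0.42 on the log2 scale (SE, edgeR adjusted p = 0.0802), or 3.502 times the chronic level, and Myh11 1.73 ± 0.41 (adjusted p = 0.0866), or 3.31 times. Without number 18 these values were 1.32 and 1.35, and without number 27 they were 1.65 and 1.56. Tagln had 1.14 ± 0.37 (adjusted p = 0.266).

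Against saline, 24 h after morphine gave 0 calls by edgeR beside 0.163% of all genes, 10 members with an unadjusted p under 0.05 beside 12.1%, and 2 calls by DESeq2, Acta2 and Sox18, beside 0.718%. Acta2 stood at 1.496 ± 0.426 (SE, edgeR adjusted p = 0.158), Myh11 at 1.33 ± 0.41 (0.188), Sox18 at 0.69 ± 0.18 (0.0977) and Podxl at 0.42 ± 0.14 (0.214). Leaving out number 18 brought the value of Acta2 to 1.004.

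**Figure D3:**
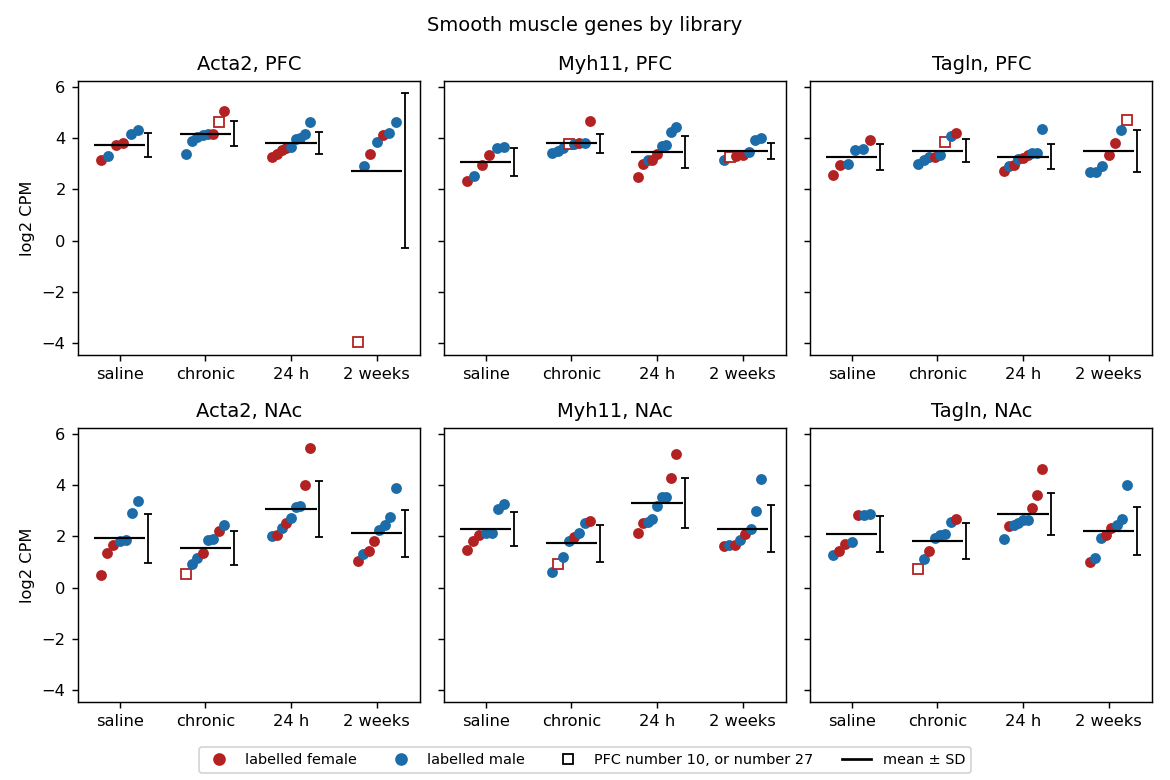
Level of Acta2, Myh11 and Tagln (log2 CPM, vertical) in each library of the 4 treatments, for PFC (top) and NAc (bottom), in red for libraries labelled female and blue for male, with open squares for PFC number 10 and the libraries numbered 27 and bars at the mean ± SD. In NAc the 24 h libraries reach from 2.02 to 5.43 for Acta2 and overlap the other groups, and PFC number 10 lies far below the rest for Acta2.

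The 34 genes of NAc had mostly positive differences at 24 h, none of which was called by edgeR. The log2 fold change against saline was positive for 31 of the 34 genes, beside 48.3% of all genes, with a median of 0.24 beside -0.01 for all genes tested. Against chronic morphine it was positive for 32, beside 47.4% of all genes, with a median of 0.32 beside -0.01. The chronic library numbered 31 was the lowest of its group in 25 of the 34 genes. Without it the second contrast had 30 positive genes and a median of 0.25, and without number 27 it had 31 and 0.21. The largest role medians outside smooth muscle at 24 h against saline were those of transcription factors (0.48), the further endothelial genes (0.33) and receptors (0.31), followed by junctions (0.18), transporters (0.17) and pericytes (0.13). The smooth muscle median was 1.33. Both contrasts use the same 24 h libraries, so their counts are not independent of each other. Members were also correlated across NAc libraries, as given below, so the genes are not separate observations.

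Podxl and Sox18 came next to the smooth muscle genes in the joint test of NAc. Podxl ranged from 4.18 to 5.28 log2 CPM with saline, from 4.20 to 5.26 under chronic morphine, from 5.03 to 5.57 at 24 h and from 4.27 to 5.37 at 2 weeks. Its 24 h libraries formed the narrowest group and overlapped the top of the others (edgeR adjusted p = 0.0706 in the joint test). Sox18 had medians of 1.83 log2 CPM with saline, 1.94 under chronic morphine, 2.70 at 24 h and 2.21 at 2 weeks (edgeR adjusted p = 0.0712). Cldn5 had the lowest median under chronic morphine, 4.14 against 4.61 with saline, 4.86 at 24 h and 4.68 at 2 weeks, and its log2 fold change of -0.38 ± 0.16 (SE) against saline did not pass (edgeR adjusted p = 0.236).

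Chronic morphine against saline in NAc gave 0 calls by edgeR beside 1.69% of all genes and 0 by DESeq2 beside 3.76%, and 1 member, Cldn5, had an unadjusted p under 0.05 beside 15.2%. The median of the 34 genes was -0.06 and 10 were positive, beside 48.2% of all genes. Without 1 chronic library it ranged from -0.17 with 3 positive genes (number 26 left out) to 0.03 with 19 (number 27 left out), and it was -0.14 without number 28, -0.03 without number 25 and -0.0051 without number 31. At 2 weeks against saline there were again 0 calls by edgeR beside 0.00544% of all genes and 0 by DESeq2 beside 0.163%, 0 members with an unadjusted p under 0.05 beside 6.44%, and a median of -0.01. At 2 weeks against chronic morphine, 0 members were called by edgeR beside 1.88% and 0 by DESeq2 beside 3.21%, and 2 reached an unadjusted p under 0.05 beside 12.8% of the genes.

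**Figure D4:**
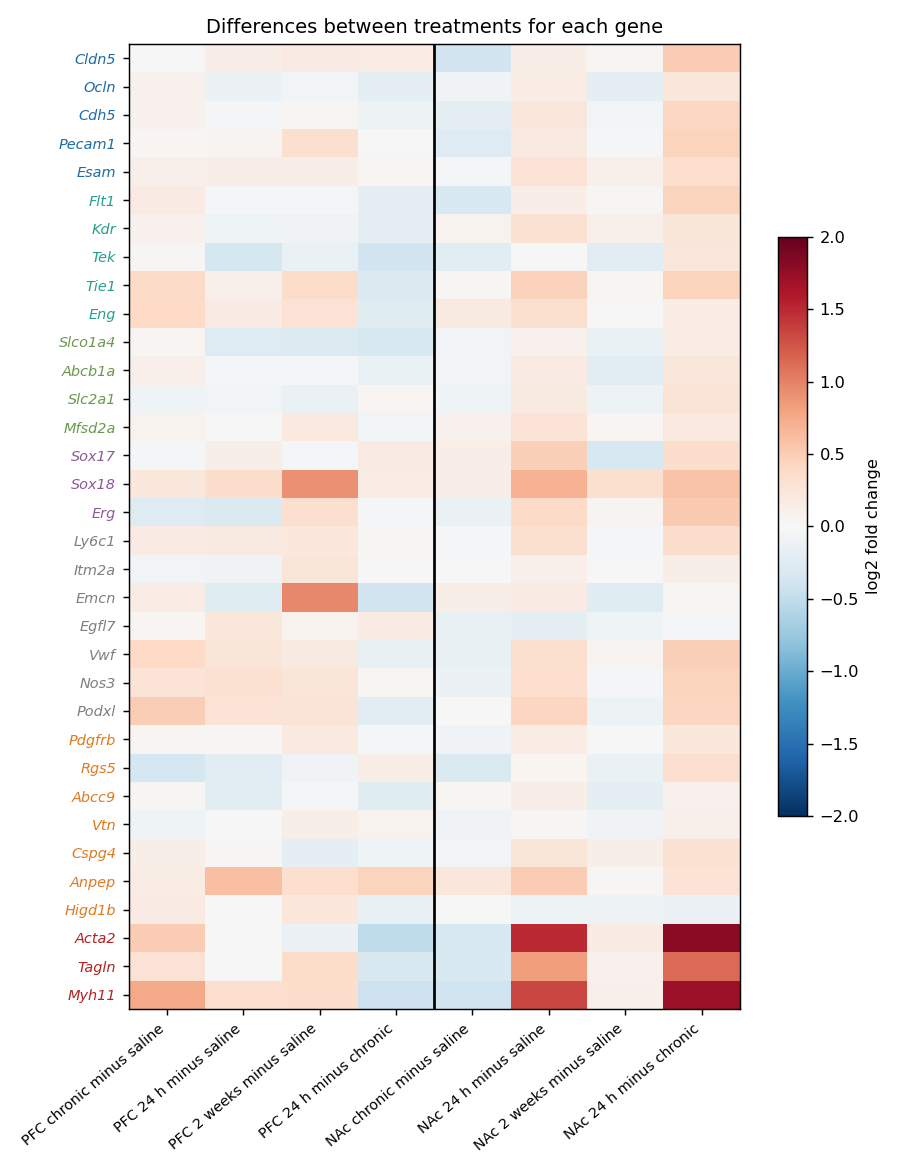
Log2 fold change of each of the 34 genes (rows, names coloured by role) in 4 contrasts of treatments in PFC and 4 in NAc (columns), with red for higher and blue for lower. The strongest red lies in the smooth muscle genes of NAc at 24 h, with 1.81 for Acta2 and 1.73 for Myh11 against chronic morphine. No contrast of any member shown passed the edgeR threshold.

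Markers of other tissue moved with the NAc treatments to some degree. Cortical neuron markers, which show how much cortex a punch took in, had a median log2 fold change of 0.31 at 24 h against saline and 0.90 against chronic morphine over 8 genes. Of these, Slc17a7 and Neurod2 were called in the joint test (edgeR adjusted p = 0.0326 and 0.0437), beside 1.84% of all genes. The summed level of the 8 genes was 52.4 to 90.4 CPM with saline, 44.1 to 114 under chronic morphine, 52.4 to 702 at 24 h and 61.3 to 79.0 at 2 weeks. The library with 702 CPM was number 24, whose Acta2 level of 2.02 was the lowest of the 24 h group, and number 18 had 56.2 CPM. Without number 24, Acta2 and Myh11 stayed called (edgeR adjusted p = 0.0217 and 0.0369). The part of cortical tissue in the smooth muscle values was not tested. Striatal markers differed widely between NAc libraries. Their summed level over 8 genes was 382 to 4946 CPM with saline and 422 to 7784 under chronic morphine. It was 993 to 6716 CPM at 24 h, 2422 to 6279 at 2 weeks and 176 to 330 in PFC. Choroid plexus and ependyma markers reached 796 CPM in NAc at 24 h (NAc median 103) and 3461 CPM in PFC under chronic morphine (PFC median 14.9). With the mean of these 8 striatal markers as a covariate, chosen after seeing the data, the 24 h contrast with chronic morphine was 1.81 ± 0.40 (SE, edgeR adjusted p = 0.0400) for Acta2 and 1.73 ± 0.39 (0.0432) for Myh11. Fibroblast and meninges markers had a median of 0.53 at 24 h against saline with 0 of 13 called (198 to 351 CPM with saline, 211 to 433 at 24 h), and perivascular macrophage markers 0.91 with 0 of 6 called (0.556 to 4.22 and 2.50 to 7.11 CPM). By unadjusted p under 0.05 these lists had 3 and 2 genes, beside 12.1% of all genes. The share of all genes called by edgeR in that contrast was 0.163%, and the part of these cells in the result was not tested.

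In PFC no member was called in any treatment comparison by edgeR. Chronic morphine against saline gave 0 calls by edgeR beside 0.417% of 17966 genes and 0 by DESeq2 beside 0.965%, with 5 members at an unadjusted p under 0.05 beside 7.91%. The median of the 34 genes was 0.09, beside 0.01 for all genes, and 27 were positive, beside 51.5% of all genes. Myh11 ranged from 2.33 to 3.65 log2 CPM with saline (median 3.15) and from 3.42 to 4.67 under chronic morphine (median 3.77), with an overlap between the groups. The difference of 0.76 ± 0.23 (log2, SE) did not pass (edgeR adjusted p = 0.212). The others with an unadjusted p under 0.05 were Podxl at 0.49, Eng at 0.40, Tie1 at 0.39 and Rgs5 at -0.35.

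After morphine, the joint test in PFC called 0 of 34 members by edgeR beside 0.707%, 4 reached an unadjusted p under 0.05 beside 8.73% of the genes, and DESeq2 called 1, Sox18, beside 1.996%. Sox18 had the smallest p and ranged from 3.02 to 3.86 log2 CPM with saline (median 3.23), from 2.97 to 3.89 under chronic morphine (median 3.54), from 3.16 to 4.06 at 24 h (median 3.69) and from 3.61 to 5.37 at 2 weeks (median 4.10). The highest value is that of number 10, and the groups overlapped. At 2 weeks its log2 fold change was 0.92 ± 0.23 (SE, edgeR adjusted p = 0.660) against saline and 0.72 ± 0.21 (0.108) against chronic morphine. Without number 10 these became 0.63 and 0.42.

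Erg and Emcn, the next members by p in PFC, depended on number 10. Erg ranged from 2.83 to 3.17 log2 CPM with saline, from 2.40 to 2.92 under chronic morphine, from 2.31 to 3.01 at 24 h and from 2.60 to 4.54 at 2 weeks. Emcn ranged from 2.06 to 2.85, 2.01 to 2.94, 1.91 to 2.63 and 1.89 to 5.82 in the same order. The groups overlapped, and in both genes number 10 held the top value. At 2 weeks against saline, the log2 fold change of Emcn was 0.95 ± 0.39 (SE, edgeR adjusted p = 0.896) and -0.18 without number 10, and that of Erg 0.33 ± 0.21 (0.947) and -0.01 without it.

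The remaining PFC contrasts gave few low p-values. At 24 h against saline, 0 members were called by edgeR beside 0.0779% of all genes and by DESeq2 beside 0.257%, and 0 reached an unadjusted p under 0.05 beside 3.01%. At 24 h against chronic morphine the count was 0 by edgeR beside 0.0278% and by DESeq2 beside 0.195%, with 2 members at an unadjusted p under 0.05 beside 5.04%. At 2 weeks against saline it was 0 by edgeR beside 0.00557% and by DESeq2 beside 0.0279%, with 4 members beside 5.04%, and against chronic morphine 0 by edgeR beside 0.824%, with 5 members beside 13.8% and 1 call by DESeq2, Sox18, beside 2.41%. Acta2 in PFC had medians of 3.77 log2 CPM with saline, 4.14 under chronic morphine, 3.66 at 24 h and 3.85 at 2 weeks.

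Whether the treatment effects differ between the regions was tested directly. The test of region by treatment called 0 of 34 members by edgeR beside 0.0363% of 19266 genes, while 9 had an unadjusted p under 0.05 beside 4.78%, and DESeq2 called 1, Myh11, beside 0.145%. Myh11 had the smallest p of the 34 (edgeR adjusted p = 0.286), with NAc effects against saline minus PFC effects of -1.14 under chronic morphine, 1.01 at 24 h and -0.25 at 2 weeks. Acta2 came next with -0.81, 1.51 and 0.30 (edgeR adjusted p = 0.422, and 0.113 without number 10). The size of the smooth muscle difference at 24 h is therefore not shown to be particular to NAc.

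Sex made no called difference. The libraries numbered 27 were used here as labelled, and leaving out any 1 library of a region left the edgeR counts below at 0. Male against female gave 0 members by edgeR in PFC beside 0.0334% of all genes and in NAc beside 0.0598%, and 0 by DESeq2 beside 0.0279% and 0.0816%. At an unadjusted p under 0.05 there were 2 members in PFC beside 4.54% of all genes and 0 in NAc beside 4.79%. Sex by treatment gave 0 members by edgeR, beside 0% of all genes in PFC and 0.0544% in NAc, and 0 by DESeq2, beside 0.268% and 0.506%. At an unadjusted p under 0.05 there were 3 members in PFC beside 4.71% and 2 in NAc beside 9.56%. The member with the smallest p in NAc was Acta2 (edgeR adjusted p = 0.453), whose male effect against saline minus the female effect was -2.76 at 24 h. The 2 highest 24 h values of Acta2 in NAc, 5.43 and 4.01 log2 CPM, were of female libraries, numbers 18 and 21.

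Within the groups, the smooth muscle genes of NAc varied together from library to library. Deviations from the mean of the same treatment and labelled sex were correlated over libraries for 8 gene pairs per region, 16 relations in all. Permutation tests used 100000 resamples (two-sided), with Benjamini-Hochberg adjustment over the 16. They shuffled deviations over all libraries of a region, not within groups. Deviations in a group are tied by its mean, so these p-values can be too small. In NAc, Acta2 and Myh11 had Pearson r = 0.88 and Spearman rho = 0.86 (n = 32, permutation p = 1e-05 each, the smallest these resamples can give, adjusted p = 2.67e-05 and 4e-05). Leaving out the 2 libraries farthest from the median of Acta2 gave r = 0.85. Acta2 with Tagln gave 0.81 (rho 0.78) and Tagln with Myh11 0.81 (rho 0.77). A library's depth and its share of vessel tissue are common to all genes in it, and their part in these correlations was not tested.

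Endothelial, pericyte and smooth muscle genes of NAc were also correlated with each other. Cldn5 and Flt1 had r = 0.83 (rho 0.83), Cldn5 and Rgs5 0.70 (rho 0.66), Cldn5 and Acta2 0.68 (rho 0.71), and Flt1 and Acta2 0.64 (rho 0.69). All 4 had a permutation p adjusted over the family of 0.00026 or lower, and without the 2 farthest libraries their r lay between 0.63 and 0.82. Rgs5 with Abcc9 had r = 0.57 (permutation p = 0.00248, adjusted 0.00441) but rho of 0.30 (adjusted p = 0.0973), and r = 0.17 without the 2 farthest libraries, so that relation rests on those libraries. Without number 27 the 8 values of r lay between 0.59 and 0.88.

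In PFC some of the same relations turned on number 10 and others changed little without it. Acta2 with Myh11 had r = 0.22 over all 30 libraries (rho 0.65, permutation p = 0.238, adjusted 0.254), 0.47 without the 2 farthest libraries and 0.68 without number 10. Acta2 with Tagln had r = -0.12 (rho 0.42, adjusted permutation p = 0.519), 0.31 without the 2 farthest and 0.76 without number 10. The high value of Flt1 with Acta2, r = 0.91 (rho 0.59), became 0.40 without number 10, and Tagln with Myh11, r = 0.48 (rho 0.46), became 0.51. Cldn5 with Acta2 had r = 0.43 (rho 0.50), 0.46 without the 2 farthest and 0.51 without number 10. Cldn5 with Flt1 (r = 0.31, rho 0.26, adjusted permutation p = 0.102) did not pass and was 0.12 without number 10. Cldn5 with Rgs5 (r = 0.34, rho 0.34, adjusted permutation p = 0.0802) did not pass either and was 0.39 without number 10. Rgs5 with Abcc9 (r = 0.45, rho 0.37, adjusted permutation p = 0.0176) was 0.30 without the 2 farthest libraries and 0.49 without number 10.

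**Figure D5:**
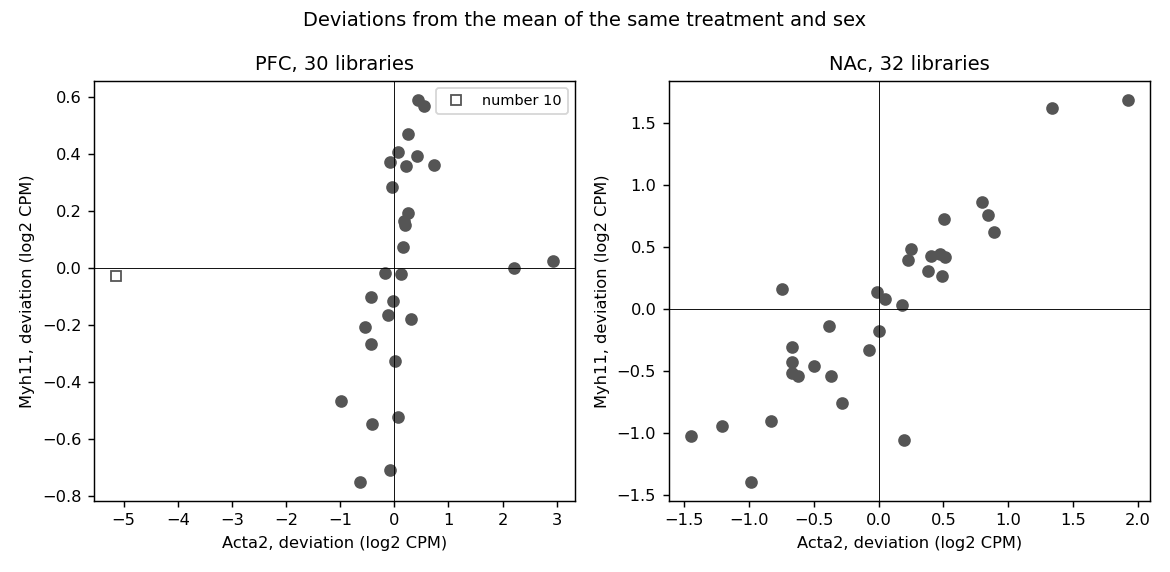
Deviation of Acta2 (horizontal, log2 CPM) and of Myh11 (vertical, log2 CPM) from the mean of the same treatment and labelled sex, 1 point per library, in PFC (30) and NAc (32). The NAc points follow a rising line (r = 0.88), and in PFC number 10, the open square, lies far to the left of the rest.

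Genes of the pathways around these markers were read from 5 further lists that hold none of the 34 genes. Between the regions, the barrier Wnt list, whose ligands and receptors maintain the blood-brain barrier, had all of its 20 genes called, 14 lower and 6 higher in NAc (median -0.57). Of 25 angiogenic signalling genes 16 were lower and 5 higher (median -0.42), and of 24 contractile and mural genes 16 and 2 (median -0.64). Of 19 further barrier transporters 12 were lower and 2 higher (median -0.55). Of 16 genes listed as tight junction partners 7 were lower and 5 higher (median -0.08). That list also holds Cav1, Cavin1, Cavin2 and Plvap, which are not tight junction genes. These counts stand beside the 29.7% of all genes called lower and 36.5% called higher.

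Between treatments 5 genes of these lists were called in a contrast. The joint test of any difference called 6 of 102 list entries (5.88%) in NAc, beside 1.84% of all genes. A gene in more than 1 list counts in each of them. In PFC it called 2 of 103 (1.94%), beside 0.707%. Over the 5 lists together 2 of 102 entries tested (1.96%) were called in NAc under chronic morphine against saline, beside 1.69% of all genes. At 2 weeks against chronic morphine 3 (2.94%) were called, beside 1.88%. At 24 h in NAc 1 of 102 (0.980%) was called in each contrast, beside 0.163% against saline and 0.087% against chronic morphine, and in PFC 1 of 103 (0.971%) under chronic morphine, beside 0.417%. Slc16a1, the monocarboxylate transporter that carries lactate and ketone bodies, was lower under chronic morphine in both regions. In NAc it ranged from 5.11 to 5.44 log2 CPM with saline and from 4.52 to 5.07 under chronic morphine, with no overlap, and fell by 0.44 ± 0.10 (SE, edgeR adjusted p = 0.0210). In PFC it ranged from 5.37 to 5.80 and from 4.67 to 5.40, with a slight overlap, and fell by 0.51 ± 0.12 (edgeR adjusted p = 0.0486). In NAc it was higher at 2 weeks than under chronic morphine by 0.43 ± 0.10 (adjusted p = 0.0173).

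Dll4, the Notch ligand of endothelial tip cells, ranged from 1.30 to 2.28 log2 CPM with saline in NAc and from -0.06 to 1.32 under chronic morphine, and fell by 1.01 ± 0.21 (SE, edgeR adjusted p = 0.0110). In PFC the joint test called it too (edgeR adjusted p = 0.0131), with medians of 2.08 log2 CPM with saline, 1.60 under chronic morphine, 1.13 at 24 h and 1.97 at 2 weeks. Vegfa, the main vascular growth factor, ranged from 5.07 to 5.66 log2 CPM in NAc under chronic morphine and from 5.58 to 6.03 at 2 weeks and rose between them by 0.45 ± 0.08 (edgeR adjusted p = 0.00129). The saline libraries of Vegfa lay between 5.52 and 5.88.

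Smtn, smoothelin of contractile smooth muscle, was the called gene nearest in kind to Acta2 and Myh11. In NAc it ranged from 1.86 to 2.61 log2 CPM under chronic morphine and from 2.30 to 3.44 at 24 h, with an overlap, and rose by 0.74 ± 0.15 (SE, edgeR adjusted p = 0.0296). At 2 weeks against chronic morphine it was higher by 0.57 ± 0.15 (adjusted p = 0.0451). The other 21 tested genes of the contractile list were not called in that 24 h contrast. There 8 of its 22 genes had an unadjusted p under 0.05, beside 8.84% of all genes, and the median was 0.16. Abcc4, an efflux transporter of organic anions, ranged from 2.48 to 3.17 log2 CPM in NAc with saline and from 3.27 to 3.86 at 24 h, with no overlap, and rose by 0.59 ± 0.12 (edgeR adjusted p = 0.0341). Tjp1, the tight junction scaffold ZO-1, was called in the joint test of NAc (edgeR adjusted p = 0.0313), with medians of 6.41 log2 CPM with saline, 6.42 under chronic morphine, 6.67 at 24 h and 6.62 at 2 weeks.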

How the data were processed

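RNA-seq of PFC and NAc punches was analysed from the count table the authors deposited, which holds whole-number counts per gene for 62 mouse libraries. The tool that made these counts is not given in the sources used here. The submitters' processing notes name FastQC, cutadapt, STAR, RSEM, Trimmomatic and HISAT2 and the builds GRCm38 and Rnor_6.0, with no roles. The rat table was not used here. Special counting entries were left out of library sizes and tests (medians of 5.43% no feature, 0.832% ambiguous, 0.334% low quality, 0.566% not aligned, 14.7% not unique). Groups came from the labels.

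Genes were tested with edgeR 4.0.16 (R 4.3.3, limma 3.58.1): TMM factors, the filterByExpr low-count filter, and a quasi-likelihood fit with a mean per treatment and sex in each region, or per region, treatment and sex for both regions. Contrasts were averaged over sexes, and p-values were adjusted by Benjamini-Hochberg over all genes tested. All 34 genes passed the filter in every fit. Levels are log2 CPM with a prior count of 2; TPM used exon lengths of GENCODE M21. Alternatives were DESeq2 1.42.0, median-of-ratios factors, no low-count filter, an additive sex term, 2 surrogate variables (sva 3.50.0), a replicate block and leaving out each library. Given in full were members called in a treatment test or, below 3 such members in a region, those with the smallest p of the joint test, and the members with the largest differences between regions; genes of the 5 pathway lists were named where called. The members and lists were chosen with earlier results of these data known. The scripts were tested on simulated counts. No pair of 213 within groups agreed within sampling noise. Mouse promoters were not analysed here.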

Additional observations from a re-analysis of the deposited data

Results flagged for a closer look

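Each gene's log2 CPM was examined in each group of 4 to 10 libraries for a highest or lowest library set apart from the others by Dixon's test. Of 272 such groups 26 were marked, and chance marks about 1 in 20. PFC number 10 of the 2 week group was the lowest for Acta2, Anpep, Cspg4, Higd1b, Ocln and Sox17 at -3.96 each, for Flt1 at 4.03, Slco1a4 at 3.72 and Tek at 2.23, and the highest for Emcn at 5.82 and Sox18 at 5.37. In the chronic group of NAc, number 31 was the lowest for Abcc9 at 1.18, Nos3 at 1.52, Slco1a4 at 3.19 and Vtn at 3.96. In the chronic group of PFC, number 31 was the highest for Cdh5 at 4.87, Pdgfrb at 5.47 and Tek at 4.94, number 27 the lowest for Erg at 2.40 and number 25 the highest for Myh11 at 4.67. At 24 h in PFC, number 20 was the highest for Egfl7 at 4.90 and the lowest for Slco1a4 at 4.69, and number 24 the highest for Tagln at 4.37. In NAc at 2 weeks, number 14 was the highest for Esam at 3.72 and number 13 for Mfsd2a at 4.50, and with saline number 4 was the lowest for Vtn at 5.06.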

How the results depend on the processing

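PFC number 10 had the lowest depth, and its unaligned share and even counts also set it apart. Low genes such as Higd1b had few counts. Counts of members called moved as follows: NAc 24 h against chronic morphine to 2 with 2 surrogate variables, DESeq2 and the striatal covariate; NAc 24 h against saline to 2 with DESeq2; any difference in NAc from 2 (beside 1.84% of all genes) to 5 with 2 surrogate variables (6.31%) and with DESeq2 (4.75%), 4 with the striatal covariate (4.72%) and 1 with an additive sex term (1.60%); PFC 2 weeks against chronic morphine and PFC any difference to 1 with DESeq2; region by treatment to 1 with DESeq2. Leaving out number 10 or the pair numbered 27 gave 32 to 33 members for NAc against PFC, 27 to 29 in saline and 0 for region by treatment. Within a region, leaving out each library gave 0 to 4 for any difference in NAc, 0 to 2 for any difference in PFC and for PFC 2 weeks against chronic morphine, 0 to 1 for NAc 24 h against either group, and 0 elsewhere. Directions turned in PFC for Emcn at 2 weeks against chronic morphine (-0.34 with surrogate variables, and -0.32 to 1.07 leaving out 1 library) and saline (-0.18, and -0.18 to 1.21), Erg at 2 weeks against saline (-0.031, and -0.014 without number 10) and Sox18 at 24 h against chronic morphine (-0.010 with surrogate variables). In NAc they turned for Myh11 at 2 weeks against saline (-0.022 with the striatal covariate, and -0.23 to 0.21 leaving out 1 library), Acta2 there (-0.076 to 0.35), and Podxl under chronic morphine against saline (0.0027 with DESeq2 and median-of-ratios factors, -0.11 to 0.070) and at 2 weeks against chronic morphine (-0.16 to 0.016). Of the PFC correlations, Acta2 with Tagln became 0.31 without the 2 farthest libraries, 0.76 without number 10 and -0.12 without number 27, Acta2 with Myh11 0.47, 0.68 and 0.23, Tagln with Myh11 0.37 without the 2 farthest, and Cldn5 with Rgs5 0.39 without number 10 and 0.35 without number 27; Rgs5 with Abcc9 became 0.30 in PFC and 0.17 in NAc. The cause was not tested.

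With the replicate number as a block, 32 members were called for NAc against PFC, 28 in saline and 0 for region by treatment. Same-numbered PFC and NAc libraries deviated together with a median r of 0.0679 over 30 numbers (0.00769 to 0.216), all above 0, against a median of -0.0180 over 88 pairs of other numbers in the same treatment and sex. Of the 30 values 5 were above 0.1. The labels do not say whether libraries of the same number come from the same animal, and the main fit treated them as separate. Both libraries numbered 27 went against their sex label. Of the PFC libraries 14 of 30 correlated best with their own number in NAc, and 9 of 30 the other way round, a hint from the data and not the design.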
